A study of Mus musculus with 14 samples.

Results

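The genes described here are the chemokines and chemokine receptors of the mouse caudal intervertebral disc, measured by RNA-seq in 2 models of type 2 diabetes. Members were the protein-coding genes whose symbol belongs to the Ccl, Cxcl, Cx3cl, Xcl, Pf4 and Ppbp ligand families or the Ccr, Cxcr, Cx3cr, Xcr and Ackr receptor families, with Ccrl2. The rule found 70 of the 55487 genes in the table, under 64 symbols, and 7 of the 70 lie on unplaced scaffolds. Levels scaled to library size (CPM) passed the minimum for testing, above 1 in at least 3 libraries, in 25 members, 14 ligands and 11 receptors. The other 45 were too low to test, 8 of them with 0 counts in every library.

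Each library came from 1 male mouse, with 5 discs pooled. The db/db mice (n = 3), which carry the Lepr db mutation on both alleles, were compared with heterozygous db/+ mice (n = 3), both 12 weeks old. The STZ-HFD mice (n = 4) were C57BL/6J animals fed a high-fat diet for 4 to 6 weeks, injected once with streptozotocin (STZ) at 100 mg/kg and kept on the diet for a further 12 weeks. Their Con+Veh controls (n = 4), labelled wild type, received chow and the citrate vehicle, so that diet and toxin cannot be told apart in that comparison. The study's methods give an age of 12 weeks for the mice of this cohort too, without saying at which step. It cannot be the age at harvest, which came after the 4 to 6 weeks and the further 12 weeks. Age at harvest therefore differs between the cohorts as well. The db mutation changes the splicing of the leptin receptor rather than removing its transcript. Lepr counts were 309, 534 and 375 in db/db and 472, 374 and 391 in db/+, so whole-gene counts did not separate the genotypes. All 14 libraries carry 1 batch label.

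Chemokines are small secreted proteins that guide migrating cells along concentration gradients. They bind receptors that signal through inhibitory G proteins, and inflammatory chemokines are induced where leukocytes are to be recruited, while homeostatic ones position cells in resting tissue. Atypical receptors (Ackr) bind chemokines without G-protein signaling and remove or transport them. The healthy disc is largely avascular, and its cells can themselves make chemokines. The study assayed a panel of secreted proteins in medium from cultured spine units, each a disc with its adjacent vertebral bodies. The panel held 16 of the ligands described here. Those units came from other mice than the RNA, which was taken from discs frozen without culture. The comparisons below give the RNA of the same families, in unlike tissue and animals.

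Depth ranged from 16076908 to 58943169 counts per library. By depth alone, 3 counts corresponded to 0.0509 to 0.187 CPM, without the TMM scaling factors that enter the gene levels below. With those factors, 2 counts of Ccl3 in db/db replicate 2 were 0.0286 CPM. In STZ-HFD replicate 1, 10 counts of Ccl20 were 0.393 CPM. STZ-HFD replicate 1 stood apart, with the lowest depth and a count on 42626 genes, against 25194 to 29924 in the other libraries. Summed disc and cartilage markers (14 genes) ranged from 13515 to 40919 CPM in the db libraries and from 1785 to 5450 CPM in the other cohort. The 8 skeletal muscle markers summed to 6799 to 50195 CPM over all libraries, so the pooled tissue held muscle RNA as well as disc RNA. In bulk tissue, fewer cells of a type and less RNA per cell cannot be told apart.

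The promoters of the 3 genes that rose in db/db discs are shown because these genes moved together. Each is the RefSeq sequence of the 250 bases before the annotated start, on GRCm38.p6, written 5′ to 3′ along the gene's strand. Capitals mark matches to TATAAA, the TATA box motif, on either strand. Ccl6 is at chr11:83593088-83593337 on the minus strand, Ccl9 at chr11:83578637-83578886 on the minus strand and Cxcl13 at chr5:95956689-95956938 on the plus strand.
Ccl6: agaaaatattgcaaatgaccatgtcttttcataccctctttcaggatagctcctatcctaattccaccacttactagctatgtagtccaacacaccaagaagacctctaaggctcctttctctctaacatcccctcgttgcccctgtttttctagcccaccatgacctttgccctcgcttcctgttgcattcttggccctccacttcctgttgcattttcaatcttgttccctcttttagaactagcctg
Ccl9: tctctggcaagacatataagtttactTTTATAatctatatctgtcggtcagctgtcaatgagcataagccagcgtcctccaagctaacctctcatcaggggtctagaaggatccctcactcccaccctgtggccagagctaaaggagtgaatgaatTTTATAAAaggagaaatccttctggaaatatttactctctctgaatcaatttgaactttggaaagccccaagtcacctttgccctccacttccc
Cxcl13: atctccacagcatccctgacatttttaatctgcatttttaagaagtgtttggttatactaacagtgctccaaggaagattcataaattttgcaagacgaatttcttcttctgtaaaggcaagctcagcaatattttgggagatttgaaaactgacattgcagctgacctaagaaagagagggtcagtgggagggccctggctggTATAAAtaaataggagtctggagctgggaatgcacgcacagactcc

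The Ccl6 window held no match. The Ccl9 window held TATAAA in a pair of overlapping matches on opposite strands from base 157 to base 164 and once more at bases 27 to 32. In the Cxcl13 window it lay at bases 205 to 210. Among all 32851 windows of this length, 12.4% held TATAAA. Windows matched 49 of the 64 member symbols, and 8 of the 26 windows of tested members held the motif. GAGGAA, a sequence bound by the myeloid factor PU.1, was also searched on both strands, without overlap with TATAAA. It was found in none of the 3 windows and in 23.3% of all windows. Other sequences that PU.1 can bind were not searched.

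Per kilobase of exon, Cxcl14 was the most abundant member, with a median of 73.3 CPM per kilobase over the 14 libraries and a range of 18.6 to 153. CXCL14 is a homeostatic chemokine of epithelia and connective tissue. Cxcl12, the stromal ligand that retains CXCR4-bearing cells, followed with a median of 16.4 (6.90 to 26.4) on the same scale. Pf4, a platelet and macrophage chemokine, had 14.5 (6.55 to 40.8), Ccl11, the eosinophil chemokine eotaxin, 12.7 (2.45 to 29.0), and Ccl6, a mouse CC chemokine of myeloid cells, 4.55 (0.957 to 15.95). The ranges of Cxcl12, Pf4 and Ccl11 overlapped, so the order among them did not exceed the spread between libraries.

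Among the receptors, the scavenger receptor Ackr3, which takes up CXCL12, led with a median of 7.83 CPM per kilobase (2.13 to 12.8). Cxcr4, the signaling receptor for CXCL12, had 3.12 (0.957 to 5.62). Ackr1, the venular receptor that carries chemokines across endothelium, had 2.38 (1.56 to 5.96), with 25.7% of its exon bases shared with Cadm3 on the same strand, so its counts are uncertain. Ackr2, which clears inflammatory CC chemokines, had 1.43 (0.490 to 3.13), and Cx3cr1, the fractalkine receptor of monocytes and macrophages, 1.36 (0.395 to 7.49). All 5 atypical receptors were testable, against 3 of 10 CC receptors and 3 of 8 receptors of the CXC, CX3C and XC classes.

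**Figure D1:**
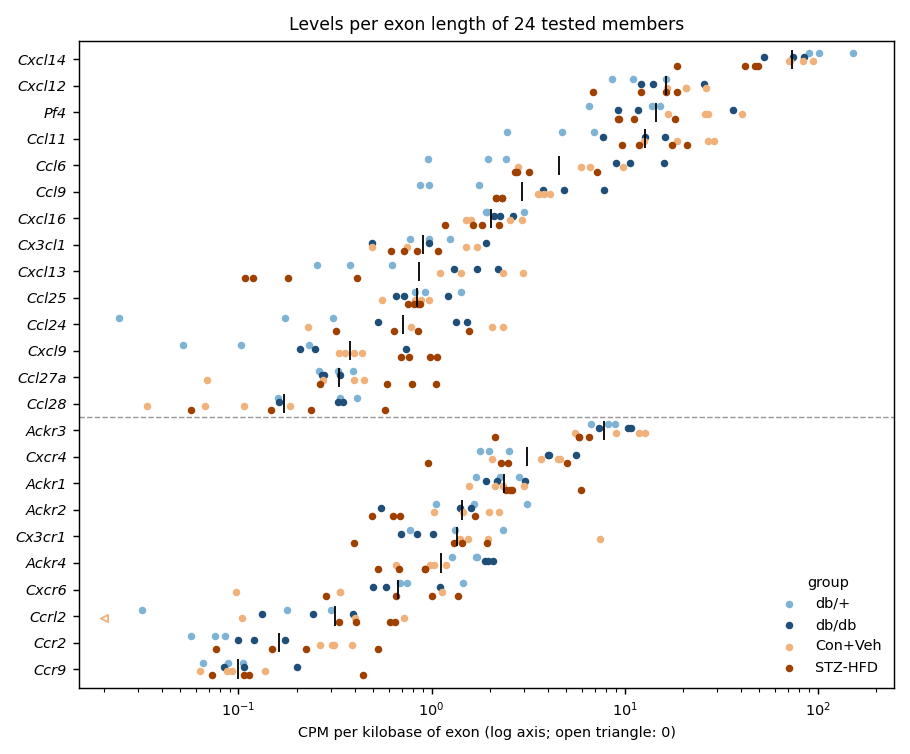
Level of 24 tested members in every library, in CPM per kilobase of exon on a log axis, coloured by group, with the median over 14 libraries as a black bar and 0 as an open triangle. Ligands are above the dashed line and receptors below it; Cxcl14 sits highest and Ccr9 lowest, with a median of 0.0993.

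In db/db discs 3 chemokine genes were higher than in db/+ discs, Ccl6, Ccl9 and Cxcl13. The rises were 7.21-fold, 4.67-fold and 4.36-fold. A gene was called where limma's adjusted p was under 0.05 and the log2 fold change at least 1 in size, and 1.66% of all tested genes were called in this comparison. No called member was lower, and 8 of the 25 had an unadjusted p under 0.05, beside 21.1% of all tested genes. The median log2 fold change was 0.37 over the 25 members and -0.04 over all 16915 tested genes.

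Ccl6 measured 28.6, 19.1 and 16.1 CPM in db/db and 4.34, 1.72 and 3.50 CPM in db/+. Every db/db library was above every db/+ library. Its means were 21.3 ± 6.54 and 3.19 ± 1.34 CPM (SD, n = 3 each), with a log2 fold change of 2.85 (SE 0.41, limma adjusted p = 0.00784). Ccl6 lies at chr11:83587882-83593087. Its product attracts macrophages and other myeloid cells.

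Ccl9, a CC chemokine made by macrophages and osteoclasts that signals through CCR1, lies at chr11:83572919-83578636 and is the nearest family member to Ccl6, 9246 bases away. Its levels were 23.7, 14.9 and 11.5 CPM in db/db and 5.34, 2.65 and 2.94 CPM in db/+, again without overlap. The log2 fold change was 2.22 (SE 0.29, limma adjusted p = 0.00753). The neighbours on the other sides of this pair were below the minimum. Ccl5 had 16, 42 and 18 counts in db/db against 16, 14 and 51 in db/+, Ccl3 had 2, 2 and 8 against 12, 10 and 8, and Ccl4 had 0, 0 and 0 against 1, 0 and 2. The rise within this cluster, at chr11:83525778-83664683, was thus measured in Ccl6 and Ccl9, and the counts of the other 3 genes overlapped or were near 0.

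Cxcl13, the ligand that draws B cells to follicles through CXCR5, lies at chr5:95956951-95961068. Levels were low, with 2.54, 1.97 and 1.51 CPM in db/db and 0.72, 0.43 and 0.29 CPM in db/+. These correspond to 96 to 162 counts and 19 to 35 counts per library. Over both cohorts only the 7 libraries of db/db and Con+Veh were above 1 CPM. Cxcl13 thus passed the minimum for testing only through groups where it was high. The db/db and db/+ libraries did not overlap, and the log2 fold change was 2.12 (SE 0.51, limma adjusted p = 0.0397). The call did not hold when any 1 library of either db group, or STZ-HFD replicate 1, was left out, with adjusted p up to 0.14. The receptor gene Cxcr5 stayed below the minimum, at 0 to 60 counts over the 14 libraries.

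Libraries of db/db and db/+ did not overlap in 9 of the 25 tested members, 8 higher and 1 lower, beside 25.8% of all tested genes. Besides the called genes, the higher ones were Ccl11, Ccl24, Cxcr4, Ccr2 and Ackr4, and Cxcl14 was the lower one. Ccl11 measured 17.6, 13.8 and 8.40 CPM against 7.55, 5.10 and 2.65 CPM, a log2 fold change of 1.43 (SE 0.37) whose adjusted p of 0.0555 in limma missed the threshold. Ccl24, a further eotaxin, measured 1.98, 0.69 and 1.72 CPM against 0.23, 0.40 and 0.03 CPM. Its log2 fold change of 3.01 had an SE of 1.13 and an adjusted p of 0.14.

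Cxcl14 was at 96.0, 155 and 136 CPM in db/db and 280, 165 and 186 CPM in db/+. The log2 fold change of -0.69 (SE 0.28) did not pass, with a limma adjusted p of 0.18. Among the receptors Cxcr4 came closest to a call, with 7.28, 10.2 and 7.31 CPM against 4.57, 3.57 and 3.24 CPM and a log2 fold change of 1.13 (SE 0.34, adjusted p = 0.0797). Its ligand Cxcl12 overlapped between the groups, at 98.9 to 210 CPM against 70.0 to 135 CPM. The CXCL12 scavenger Ackr3 also overlapped, at 24.8 to 36.1 CPM against 22.5 to 29.9 CPM, with a log2 fold change of 0.23 and a 95% interval from -0.32 to 0.79.

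Macrophage and monocyte markers, 10 of 10 tested, summed to 118 to 230 CPM in db/db and 104 to 153 CPM in db/+. None was called and 6 were positive. Mast cell markers, 5 of 6 tested, summed to 15.99 to 27.1 CPM in db/db and 8.71 to 9.57 CPM in db/+, with all 5 positive and none called. Kit was the largest part of each sum, at 10.6 to 21.3 CPM in db/db and 6.51 to 8.72 CPM in db/+. Kit and Cpa3 did not overlap between the groups, whereas Cma1, Mcpt4, Tpsb2 and Fcer1a did. Adipocyte markers summed to 398 to 715 CPM against 229 to 480 CPM, with 4 of 8 called higher and 7 positive. The 4 lymphatic endothelial markers summed to 67.9 to 112 CPM against 42.0 to 49.9 CPM, with all 4 positive and none called. Skeletal muscle markers summed lower, to 6799 to 13886 CPM against 16176 to 19019 CPM, with 0 of 8 positive and none called. Bone cell markers, osteoclast genes among them, also summed lower, to 698 to 857 CPM against 1211 to 1667 CPM. Of these 6, 0 were positive and none was called. Ibsp made up most of each sum, at 451 to 730 CPM against 787 to 1361 CPM. The osteoclast genes Acp5, Ctsk and Mmp9 overlapped between the groups. These lists' part in the rises of Ccl6, Ccl9 and Cxcl13 was not tested. Log2 fold changes across 16899 genes followed GC content in this cohort (Spearman's rho across genes -0.43), and with that trend removed Ccl6 and Ccl9 stayed called and Cxcl13 did not. DESeq2 called the same 3 members, and edgeR's quasi-likelihood test called 0 members and 0 genes at its adjusted threshold, with 7 of the 25 members at an unadjusted p under 0.05. The share of all genes with such a p in that test is not given here.

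**Figure D2:**
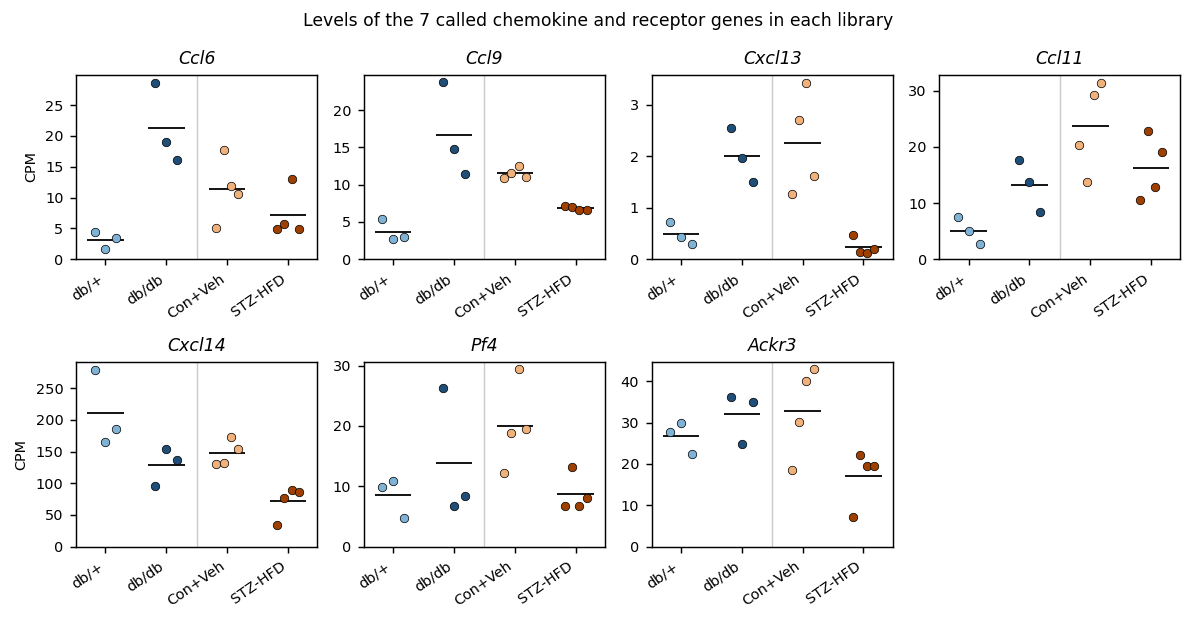
CPM of the 7 members called in any comparison, 1 point per library and a line at each group's mean, with the db cohort left and the STZ-HFD cohort right of the grey line. Ccl6, Ccl9 and Cxcl13 are higher in every db/db than every db/+ library; Cxcl13 and Cxcl14 are lower in every STZ-HFD than every Con+Veh library.

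In STZ-HFD discs 4 members were lower than in Con+Veh discs, the ligands Cxcl13, Pf4 and Cxcl14 and the atypical receptor Ackr3. They fell 13.5-fold, 2.94-fold, 2.04-fold and 2.09-fold. In this comparison 2.61% of all tested genes were called. No called member was higher, and 13 of the 25 had an unadjusted p under 0.05, beside 17.9% of all tested genes. The median log2 fold change was -0.65 over the 25 members and -0.04 over all tested genes.

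Cxcl13 measured 1.27, 2.696, 3.42 and 1.63 CPM in Con+Veh and 0.47, 0.14, 0.12 and 0.21 CPM in STZ-HFD. All STZ-HFD libraries were lower, with 4 to 12 counts each against 30 to 130. The log2 fold change was -3.76 (SE 0.82, limma adjusted p = 0.0208). Such low counts make the size of the fall less certain than its direction, which was the same under every alternative setting.

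Cxcl14, at chr13:56288643-56296551, measured 130, 132, 173 and 154 CPM in Con+Veh and 33.97, 76.9, 89.3 and 86.6 CPM in STZ-HFD. Again the groups did not overlap, with means of 147 ± 20.4 and 71.7 ± 25.7 CPM (SD, n = 4 each). STZ-HFD replicate 1 was the lowest. The log2 fold change was -1.03 (SE 0.22, limma adjusted p = 0.0208), and without that library it was -0.90 with an adjusted p of 0.0206, under the minimum fold change.

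Pf4, at chr5:90772435-90773383, measured 12.2, 18.8, 29.4 and 19.6 CPM in Con+Veh and 6.76, 13.2, 6.67 and 8.07 CPM in STZ-HFD. One STZ-HFD library overlapped the lowest control. The log2 fold change was -1.56 (SE 0.41, limma adjusted p = 0.0432). Platelet and megakaryocyte markers, 2 of 6 tested, summed to 1.51 to 5.85 CPM in Con+Veh and 4.27 to 17.7 CPM in STZ-HFD, or 4.27 to 6.49 CPM without replicate 1. The part of that list in the fall of Pf4 was not tested. In its gene cluster at chr5:90759360-90905938 only Pf4 could be tested of 7 chemokine genes.

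Ackr3, at chr1:90203980-90216751, measured 18.5, 30.1, 39.9 and 42.9 CPM in Con+Veh and 7.12, 22.04, 19.5 and 19.4 CPM in STZ-HFD. The lowest control lay inside the STZ-HFD range. Its log2 fold change was -1.07 (SE 0.24, limma adjusted p = 0.0216). The ligand Cxcl12 had 136 to 216 CPM in Con+Veh and 56.4 to 152 CPM in STZ-HFD, a log2 fold change of -0.68 (SE 0.26) with an adjusted p of 0.18. Cxcr4 had 3.74 to 8.38 CPM and 1.73 to 9.05 CPM, with no called change.

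The STZ-HFD and Con+Veh libraries did not overlap in 4 tested members, beside 4.71% of all tested genes. These were Cxcl13, Cxcl14 and Ccl9, which were lower, and Cxcl9, an interferon-inducible ligand of CXCR3 on T cells, which was higher. Ccl9 was tight in both groups, at 10.9, 11.6, 12.6 and 10.998 CPM in Con+Veh and 7.08, 7.04, 6.57 and 6.56 CPM in STZ-HFD. Its log2 fold change of -0.83 (SE 0.27) missed the threshold with an adjusted p of 0.10 in limma. Cxcl9 measured 1.00, 1.08, 1.31 and 1.19 CPM in Con+Veh and 2.32, 2.95, 2.11 and 3.20 CPM in STZ-HFD, a log2 fold change of 1.11 (SE 0.47) with an adjusted p of 0.22. The rise was not particular to this model. In db/db Cxcl9 measured 0.75, 2.23 and 0.63 CPM against 0.70, 0.31 and 0.15 CPM in db/+, which overlapped. Its log2 fold change there was 1.71 (SE 0.66, limma adjusted p = 0.15). The models differed by -0.60 (SE 0.81, limma adjusted p = 0.76).

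Con+Veh replicate 1 carried a high level of Cx3cr1, at 33.7 CPM against 6.30 to 8.83 CPM in the other Con+Veh libraries. Summed macrophage and monocyte markers in that library, 174 CPM, lay inside the range of the other controls, 143 to 284 CPM. For Cx3cr1 in STZ-HFD the estimate was -1.04 on the log2 scale (adjusted p = 0.28 in limma). It was -0.89 without Con+Veh replicate 1 and ranged from -1.43 to -0.25 when 1 library was left out, lowest in size without STZ-HFD replicate 4. The ligand Cx3cl1, the membrane-tethered fractalkine, was at -0.78 in the main comparison (adjusted p = 0.39).

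The 4 calls rested on particular libraries. Without STZ-HFD replicate 1 only Cxcl13 was called, and leaving out Con+Veh replicate 3, Con+Veh replicate 4, STZ-HFD replicate 3 or STZ-HFD replicate 4 gave 0 calls in limma, with 6 to 9 members at an unadjusted p under 0.05. The shares of all genes with such a p in those fits are not given here. Without both STZ-HFD replicate 1 and Con+Veh replicate 1, 3 members were called, Ackr3, Cxcl13 and Pf4. Of the 10 macrophage and monocyte markers, 2 were called lower in STZ-HFD and none was positive, with summed levels of 105 to 183 CPM against 143 to 284 CPM. The 14 disc and cartilage markers, 13 of them tested, summed to 1785 to 3200 CPM in STZ-HFD and 3477 to 5450 CPM in Con+Veh, with 5 called lower. Skeletal muscle markers summed to 16665 to 50195 CPM against 14080 to 36077 CPM, with 3 of 8 called higher and 8 positive. The part of these lists in the falls was not tested. DESeq2 called Cxcl13 and Cxcl14, and edgeR's quasi-likelihood test Cxcl13 alone. Limma's library weights, which enter its fold changes, ran from 0.27 for Con+Veh replicate 1 to 3.05 for Con+Veh replicate 3. Without these weights 0 members were called in this comparison.

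**Figure D3:**
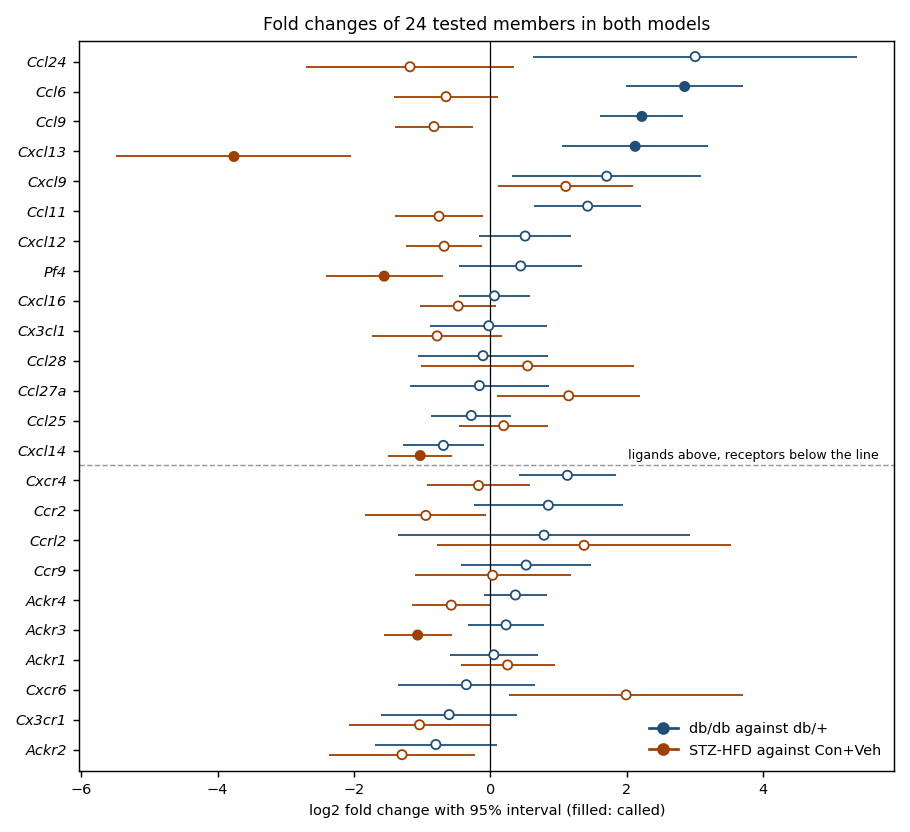
Log2 fold change of 24 tested members with its 95% interval, for db/db against db/+ (blue) and STZ-HFD against Con+Veh (brown), filled where the gene was called. The 3 called in db/db lie right of 0, and the 4 called in STZ-HFD lie left of it.

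The responses of the 2 models were compared directly by the difference of their log2 fold changes. This asks whether STZ-HFD and db/db discs moved unequally from their own controls. Of the tested members 4 differed, all lower in the STZ-HFD response, beside 1.77% of all tested genes. Cxcl13 differed by -5.88 (SE 0.96, limma adjusted p = 0.0175), being called higher in db/db and lower in STZ-HFD. It was testable only through its levels in db/db and Con+Veh, the higher group of each comparison. Ccl6 differed by -3.50 (SE 0.54, adjusted p = 0.0136) and Ccl9 by -3.05 (SE 0.40, adjusted p = 0.00232).

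Ccl11 was called in neither model alone, but its responses of 1.43 in db/db and -0.75 in STZ-HFD differed by -2.18 on the log2 scale (SE 0.48, limma adjusted p = 0.0326). In the STZ-HFD cohort it measured 20.3, 13.7, 29.2 and 31.4 CPM in controls and 10.5, 22.8, 12.9 and 19.1 CPM in diabetic mice, which overlapped. Cxcl14 was lower in both models, by -0.69 and -1.03, and the difference of -0.34 had a 95% interval from -1.10 to 0.42. No receptor differed between the models at the threshold; the nearest was Ackr3, with a difference of -1.30 and an adjusted p of 0.0674. Leaving out Con+Veh replicate 3 left only Ccl9 called, and leaving out STZ-HFD replicate 3 left Ccl6 and Ccl9. The Ccl11 difference was also lost without db/db replicate 1 or 2, db/+ replicate 2 or 3, Con+Veh replicate 4 or STZ-HFD replicate 4, with limma adjusted p of 0.0551 to 0.18 over the 8 libraries whose removal ended it, and with the GC trend removed (adjusted p = 0.0949). DESeq2 called all 4, and edgeR's quasi-likelihood test called Ccl9 and Cxcl13.

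By function, the CC ligands of monocyte recruitment were mostly below the minimum, with 2 of 9 tested, Ccl6 and Ccl9. None of the 6 CXC ligands of neutrophil recruitment passed the minimum, and neutrophil markers, 2 of 10 tested, summed to at most 22.3 CPM. Of the interferon-inducible CXCR3 ligands, Cxcl9 and Cxcl10 were members and only Cxcl9 was tested, and the receptor gene Cxcr3 was at 0 to 26 counts. Of 5 eosinophil and Th2 ligands 2 were tested, Ccl11 and Ccl24. Homeostatic and lymphoid ligands had 6 of 18 entries tested, led by Cxcl14 and Cxcl12. The other 4 of these were Cxcl13, Ccl25, Ccl27a and Ccl28. Of 5 other listed ligands 3 were tested, Pf4, Cxcl16 and Cx3cl1. Ccl26 and Ccl21d were in none of these lists and were below the minimum.

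Of the 16 ligands on the protein panel, 13 were below the minimum. Cxcl1 and Cxcl2, which recruit neutrophils through CXCR2, had counts of 0 to 36 and 0 to 14. Ccl5 reached 51 counts and Ccl22 44. Ccl17 had 76 counts in Con+Veh replicate 1 and 0 to 16 elsewhere. Ccl20 had counts in STZ-HFD replicate 1 alone, with 10, and Ccl21a had 1 count in each of 2 libraries.

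Ccl2, the main monocyte chemoattractant, was singled out after its values were seen. It had 36, 20 and 16 counts in db/db and 4, 4 and 2 in db/+, or 0.565, 0.286 and 0.251 CPM against 0.0819, 0.0694 and 0.0310 CPM. The groups did not overlap. In the limma fit without a minimum on low counts its log2 fold change was 2.44 (SE 0.67) with an adjusted p of 0.0851. In the other cohort it had 7 to 16 counts in Con+Veh and 7 to 22 in STZ-HFD (log2 fold change -0.71, SE 0.60). None of the 37 low members in that fit was called, with unadjusted p under 0.05 in 3 for db/db and 8 for STZ-HFD. In the main fit, which left out low genes, the shares of all tested genes with such a p were 21.1% and 17.9%. Of the 3 for db/db only Ccl2 was higher. Cxcl2 was lower, with a log2 fold change of -3.51 (SE 0.99, limma adjusted p = 0.0935). Ccl19 was also lower, at -2.88 (SE 0.91, limma adjusted p = 0.14).

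**Figure D4:**
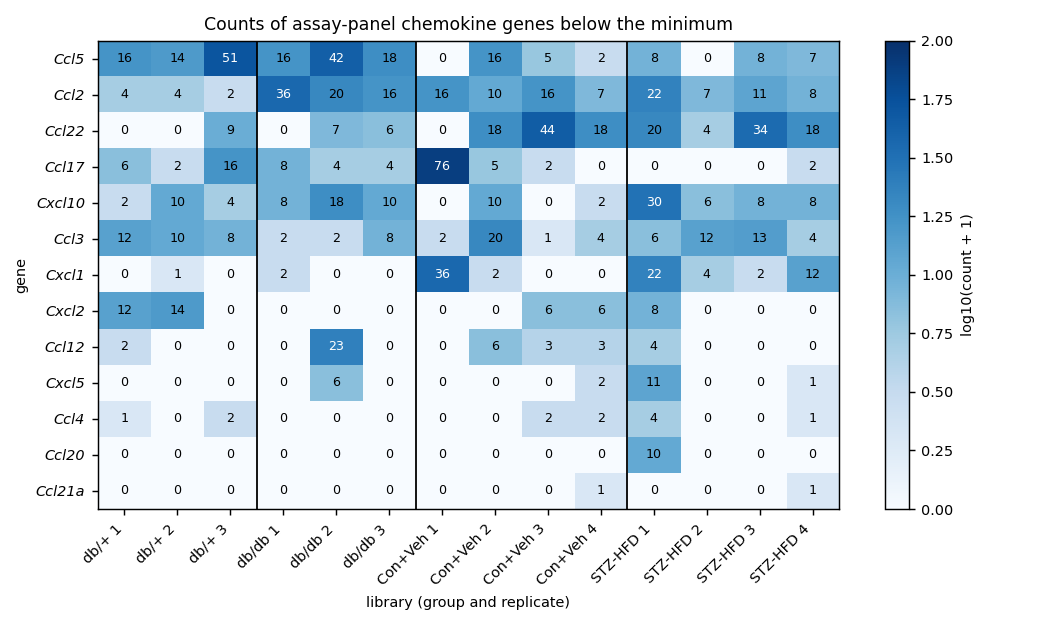
Raw counts of the panel ligands below the minimum, 1 row per gene and 1 column per library, shaded by log10(count + 1), with lines between the groups. Most cells hold under 20 counts; the highest is 76 for Ccl17 in Con+Veh replicate 1.

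Low counts were even more often than odd. Among gene counts from 1 to 10, 59.3% to 83.1% were even in the 14 libraries, so that a count of 2 need not stand for 2 separate RNA fragments. The highest share was in STZ-HFD replicate 1. That library also held the highest CPM for 21 of the low members, and their summed level was 29.5 CPM there against 2.62 to 9.85 CPM elsewhere. In it Xcr1 had 87 counts against 2 to 25, Ccr7 had 76 against 0 to 23, and Ccl1 had 62 against 0 to 4. Summed tested members were lowest there, at 182 CPM against 288 to 552 CPM. Whether these traces came from cells or from the library was not tested.

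**Figure D5:**
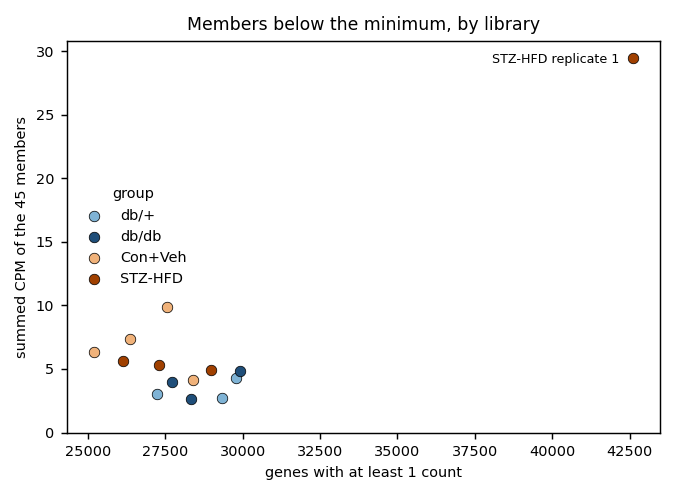
Summed CPM of the 45 members below the minimum (vertical) against the number of genes with at least 1 count (horizontal), 1 point per library, coloured by group. STZ-HFD replicate 1 sits alone at the upper right, at 29.5 CPM.

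Genes downstream of chemokine receptors were mostly not called. Of 32 listed signaling genes 29 were tested. In db/db, Rgs2, a regulator that shortens G-protein signaling, rose with a log2 fold change of 1.86 (SE 0.33, limma adjusted p = 0.0156), and Prex1, a Rac activator, fell by 1.05 on the log2 scale (SE 0.24, adjusted p = 0.0364). In STZ-HFD mice no gene of the list was called by limma. Unadjusted p was under 0.05 in 7 of 29, beside 17.9% of all tested genes, and 21 of the 29 were negative. Gnb1 and Gnai2, which encode G-protein subunits, had limma adjusted p of 0.0354 and 0.0495. Their log2 fold changes of -0.78 and -0.93 were under the minimum size. Of 22 cytokine and transcription factor genes that induce chemokines 14 were tested. None was called in db/db, where 2 had an unadjusted p under 0.05, beside 21.1% of all tested genes. Il33, an alarmin cytokine, fell by 3.03 on the log2 scale in STZ-HFD (SE 0.53, limma adjusted p = 0.00793).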

How the data were processed

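RNA from flash-frozen caudal discs of 14 mice was amplified from 1 to 50 ng (SeqPlex kit) and sequenced. According to the methods and the submitters' processing notes, the authors aligned reads with STAR 2.7.9a1 to Ensembl release 101 on GRCm38 and deposited whole-number counts per gene from featureCounts 2.0.32, without normalization, and estimated counts per transcript from Salmon 1.5.23. The strand setting is not given in the sources used here. The deposited estimated counts entered 1 alternative, summed per gene and rounded. Of 55774 gene lines, 287 repeats were dropped. The labels and the paper give different fat contents for the diet. Groups came from the sample labels, and each library is a different mouse.

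CPM used edgeR 4.0.16 TMM factors (R 4.3.3). The test was voomWithQualityWeights of limma 3.58.1 on the 16915 genes with CPM above 1 in at least 3 libraries, fitted over all 14 libraries with 4 group means, as the study's methods name it. Adjustment was Benjamini-Hochberg over all genes, and calls needed adjusted p below 0.05 with a change of 1 or more on the log2 scale. Alternatives included DESeq2 1.42.0, the quasi-likelihood test of edgeR, other scaling, filters and sample sets, and leaving out each library. The tests were checked on simulated counts. Positions and exon lengths came from GENCODE M21, promoters from RefSeq. Floors of 3 counts were computed from depth without the TMM factors and cover counting error only. The 95% intervals of fold changes come from limma's standard errors over mice. Same-numbered mice of the groups compared did not deviate together (r -0.28 to 0.19 in the db cohort and -0.26 to -0.04 in the other), so numbers were not used as pairs.

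Members and gene lists were chosen with earlier results of these data known. Named with values were called members, members on the protein panel, the 5 ligands and 5 receptors with the highest median level per length, and low members by counts. Ccl2, Ccl19, Ccl24, Cxcr3, Cxcr5 and a few neighbours were described beside them after their values were seen. One tested member is counted in the totals but not reported here.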

Additional observations from a re-analysis of the deposited data

Results flagged for a closer look

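Within groups of 4, single libraries lay far from the rest in 17 cases over 73 groups of values. The rule would flag about 1 in 20 groups of normally distributed values. Many of these counts are near 0, and a group with counts in 1 library alone is always flagged. The number of cases therefore cannot be compared with that rate. STZ-HFD replicate 1 was high for Ccl20 (0.393 CPM), Cxcl5 (0.432), Ccr9 (4.52), Cxcl10 (1.18), Ccl12 (0.157), Ccl2 (0.865) and Cxcl2 (0.315). Con+Veh replicate 1 was high for Cxcl1 (0.976 CPM), Ccl17 (2.06) and Cx3cr1 (33.7). STZ-HFD replicate 2 was high for Ackr1 (8.38 CPM against 3.41 to 3.66) and Ackr2 (5.25 CPM against 1.53 to 2.14). STZ-HFD replicate 3 was high for Ccl6, at 13.0 CPM against 4.87 to 5.73. The remaining cases rest on 1 or 2 counts, Cxcl5 (0.108 CPM) and Ccl21a (0.0542) in Con+Veh replicate 4 and Ccl17 (0.0594) and Ccl21a (0.0297) in STZ-HFD replicate 4.

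The responses of the models differed by limma's test of the difference for Cxcl13 (-5.88), Ccl6 (-3.50), Ccl9 (-3.05) and Ccl11 (-2.18 on the log2 scale, STZ-HFD minus db/db).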

How the results depend on the processing

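Members called, in the order db/db, STZ-HFD and difference of models, were 3, 4 and 4. They were 0, 1 and 2 with edgeR's quasi-likelihood test (genes 0, 29 and 5), 3, 2 and 4 with DESeq2 (STZ-HFD genes 272), and 2, 0 and 1 in voom without quality weights (genes 9, 19 and 3). Without a low-count minimum they were 3, 1 and 3 (genes 534 and 130 in the models), from transcript counts 2, 0 and 3 (genes 144, 56 and 62), and with the GC trend removed 2, 2 and 3 (db/db genes 165, difference 147). Each model alone gave 2 and 2 (STZ-HFD genes 235). Leaving out Con+Veh replicate 2 and STZ-HFD replicate 4, whose library names share an ending, gave 4, 0 and 4 (STZ-HFD genes 236, difference 115). Leaving out STZ-HFD replicate 1 and Con+Veh replicate 1, chosen after seeing the data, gave 2, 3 and 5 (difference genes 471). Where 0 members were called, 4 to 9 had an unadjusted p under 0.05, a count given without the share of all genes in those fits. With 1 library left out, members ranged over 2 to 4, 0 to 4 and 1 to 5, and genes over 21 to 395, 14 to 643 and 4 to 411. The replicate block gave 7, 0 and 1 members and 1484, 6 and 2 genes; same-numbered mice share only a number. The cause of these changes was not tested.

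Signs changed only for small values that were not called. Cx3cl1 in db/db was -0.02, but 0.18 with edgeR, 0.21 with DESeq2, 0.0045 without a minimum, 0.20 from transcript counts and 0.36 with the GC trend removed. Cxcr4 in STZ-HFD was -0.17, but 0.092 without the libraries of shared ending and 0.036 without STZ-HFD replicate 1 and Con+Veh replicate 1. With the replicate block Ackr1 in db/db was -0.0049 and Cxcr4 in STZ-HFD 0.021. With 1 library left out, Ackr1 in db/db ranged from -0.13 to 0.27, Cx3cl1 from -0.51 to 0.44, Pf4 from -0.14 to 0.85, and Cxcr4 in STZ-HFD from -0.66 to 0.032. Of the fold changes of named members under all alternatives, 686 kept direction and side of the threshold, 87 lost a call, 8 gained one and 15 changed sign. Depth limits the 45 low members, as 3 counts in a library correspond to 0.0509 to 0.187 CPM by depth alone, without the TMM factors.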
